A study of Homo sapiens with 22 samples.

Results

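The regions described here were 1004 intronic sites of asymmetric dimethylation on arginine 2 of histone H3 (H3R2me2a), found by chromatin immunoprecipitation and sequencing (ChIP-seq) in NT2/D1 cells. They were chosen by 4 conditions from the authors' region lists, which named 8819 regions in all. A region had to lie in the list called cluster III (6519 regions) and, with the same chromosome, start and stop, in the enhancer list (4583 regions), which together left 3811. It had to be classed as intronic, which left 1678, and to lie outside the short arm of chromosome 12, taken as starts below 36 Mb, which left 1494. Lastly, the column named tagcount, divided by the tags counted by the peak caller MACS, had to be 0.25 or more, a condition met by 1004 of 1494 regions. The same ratio was reached by 67.2% of those intronic regions, 71.8% of cluster III enhancer-class regions and 83.0% of all cluster III regions. These percentages restate the rule and show nothing about the members.

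NT2/D1 is a human embryonal carcinoma line that is pluripotent and can be driven to differentiate with all-trans retinoic acid (ATRA). The series held 22 samples with 5 antibodies, 5 samples each with H3R2me2a and IgG and 4 each with H3K4me3, H3K4me1 and H3K27ac, in CRISPR control cells and in cells in which PRMT6 was deleted with CRISPR/Cas9, each untreated or kept for 3 days in 1 µM ATRA. The region lists came from 2 samples, both of them H3R2me2a in control cells, while 20 samples were not analysed here. Cluster III and the enhancer and promoter lists were deposited under the sample with ATRA, and clusters I (202 regions) and II (2098 regions) under the sample without. The H3R2me2a antibody was a rat monoclonal made in the laboratory. With 1 library per condition, no comparison here has a replicate check, and no p-value was computed. The intervals given are exact 95% intervals, and they cover counting error only.

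PRMT6 is the main enzyme that places H3R2me2a. Methylation of this arginine hinders the enzymes that trimethylate the neighbouring lysine 4, the mark of active promoters, and H3R2me2a has also been found at enhancers, where lysine 4 carries a single methyl group. Enhancers are stretches of regulatory DNA that act on a promoter from a distance, and many of them lie inside introns, either of the gene they act on or of another gene. Retinoic acid binds nuclear receptors that sit on such elements and switches NT2/D1 cells from a pluripotent towards a neural programme.

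The nearest start named by the authors gives each region its gene name here, and this gene is not always the one whose intron holds the region. Of the 1004 members, 435 (43.3%) lay upstream of the start that names them, so they can be intronic only in another transcript or gene. Distances are signed by strand, with negative values upstream; the sources used here do not say whether they start at the middle, summit or edge of a region. Tags in the MACS column belong to the peak calls of cluster III. Which library tagcount was read in is not stated in the sources used here, and at the 202 cluster I regions tagcount exceeded the MACS tags of the library without ATRA by 0 to 8 (median 3). The lowest tagcount was 35 in cluster II and 0 in cluster III. Neither column was scaled for sequencing depth, so a ratio of 1 does not mark equal enrichment.

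Genes with at least 3 members and an H3R2me2a region of the promoter class at a matched start numbered 4, and their promoters are shown because the mark was called both there and in introns named for the same gene. The 250 bases before the RefSeq start (GRCh38.p14) are printed 5′ to 3′ on the gene's strand. Capitals mark GGGCGG, the core letters of the GC box, as read on the strand printed, and no copy was found on the other strand. These are reference sequences of the newer build. The regions themselves are on hg19, and their own sequence is not shown. PLXNA2 is a semaphorin receptor (chr1:208244385-208244634, minus strand), ITSN1 an endocytic scaffold (chr21:33642251-33642500, plus strand), NOTCH2 a receptor of the Notch pathway (chr1:120069663-120069912, minus strand) and NAV1 a microtubule-binding protein of growing neurites (chr1:201739650-201739899, plus strand).
PLXNA2: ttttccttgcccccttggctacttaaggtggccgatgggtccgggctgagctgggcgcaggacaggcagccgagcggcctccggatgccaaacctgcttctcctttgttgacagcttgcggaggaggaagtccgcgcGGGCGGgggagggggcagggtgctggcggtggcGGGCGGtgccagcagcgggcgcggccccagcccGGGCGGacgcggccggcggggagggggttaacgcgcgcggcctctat
ITSN1: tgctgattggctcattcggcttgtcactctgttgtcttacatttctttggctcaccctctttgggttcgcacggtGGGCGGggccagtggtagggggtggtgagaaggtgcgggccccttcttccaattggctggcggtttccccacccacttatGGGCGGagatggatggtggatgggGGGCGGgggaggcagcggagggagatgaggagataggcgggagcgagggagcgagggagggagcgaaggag
NOTCH2: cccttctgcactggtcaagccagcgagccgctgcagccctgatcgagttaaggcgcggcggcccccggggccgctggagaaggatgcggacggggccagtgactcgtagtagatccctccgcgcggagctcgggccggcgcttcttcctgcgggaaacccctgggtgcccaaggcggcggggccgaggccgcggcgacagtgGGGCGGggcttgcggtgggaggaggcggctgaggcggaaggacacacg
NAV1: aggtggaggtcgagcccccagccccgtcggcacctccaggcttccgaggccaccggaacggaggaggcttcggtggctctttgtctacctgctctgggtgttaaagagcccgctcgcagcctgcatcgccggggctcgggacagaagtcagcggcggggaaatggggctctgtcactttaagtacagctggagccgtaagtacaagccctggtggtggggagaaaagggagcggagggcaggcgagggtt
PLXNA2 and ITSN1 each held 3 copies of GGGCGG, NOTCH2 held 1 and NAV1 held 0. Of 35116 RefSeq promoters cut to the same length, 42.6% held the letters on either strand. The 4 windows held 27 (PLXNA2), 13 (ITSN1), 29 (NOTCH2) and 17 (NAV1) CpG dinucleotides, against a median of 11 over all promoters. Their GC content was 72.4%, 62.4%, 72.8% and 64.4% in the same order, against a median of 58%. All 4 were thus richer in CpG than the median promoter, and a match of letters is a description and not a binding site. The promoter-class regions at these starts had tagcounts of 23 (PLXNA2), 13 (ITSN1), 153 (NOTCH2) and 61 (NAV1) and lay -147, 84, -118 and -17 bp from the named start.

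Members were modest peaks. MACS tags ran from 27 to 253 with a median of 45 (quartiles 37 and 60), and tagcount from 8 to 168 with a median of 22 (quartiles 16 and 31). The ratio of tagcount to MACS tags, which chose the members, ran from 0.25 to 1.25 with a median of 0.441. Although the working label calls this ratio moderate, the rule sets no upper limit, and 420 members (41.8%) had a ratio of 0.5 or more and 8 (0.797%) a ratio of 1 or more. At these tag numbers the ratio of a single region is loosely fixed. The counting interval lay wholly above 0.25 for 507 members (50.5%) and wholly below it for 105 of the 490 intronic regions left out (21.4%), so the threshold divides many regions that counting error does not separate.

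**Figure D1:**
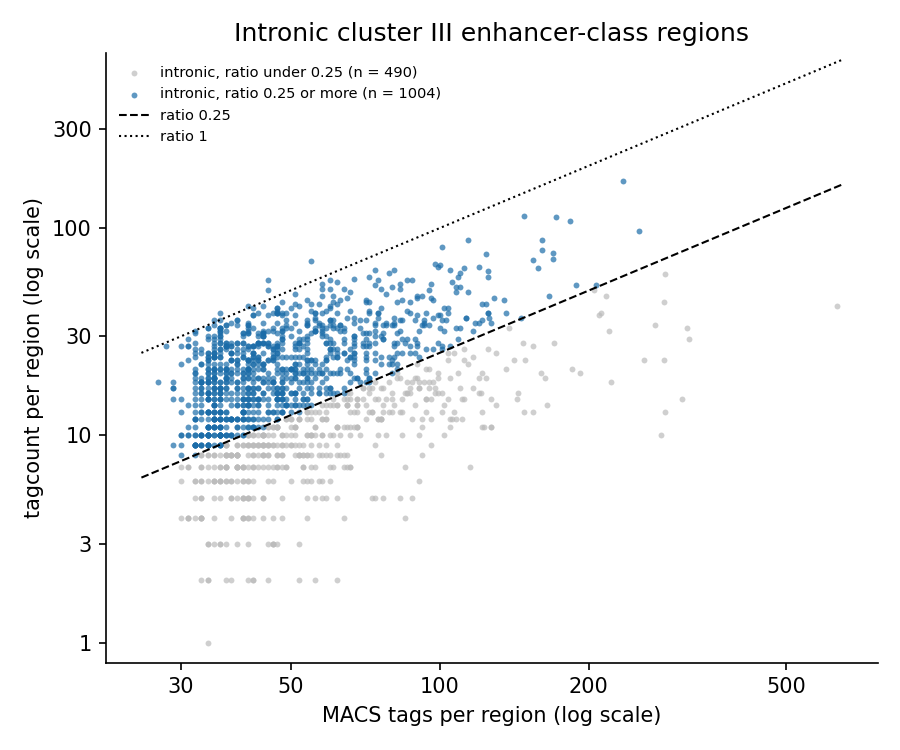
Tagcount against MACS tags for each intronic cluster III enhancer-class region, both on log scales, with 1004 members in blue and the 490 regions of ratio under 0.25 in grey. The dashed line is a ratio of 0.25 and the dotted line a ratio of 1; members fill the band between the lines, and 8 of them reach the dotted line or lie above it.

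At the threshold, 12 members had a ratio of exactly 0.25, among them a region named for ANK1, an ankyrin that ties membrane proteins to the cytoskeleton, with 36 MACS tags and a tagcount of 9. Just inside lay regions named for KIRREL (146 MACS tags, tagcount 37, ratio 0.253), FGFR1 (71 and 18, 0.254) and IGF1R (55 and 14, 0.255). Just outside lay regions named for MAP2 (65 and 16, 0.246), RNF220 (49 and 12, 0.245) and MLLT10 (90 and 22, 0.244). FGFR1 and IGF1R are growth factor receptors, and MAP2 is a microtubule protein of neurons with a second region among the members.

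The member with most MACS tags was also the widest. It lay at -17719 bp from a start of AHDC1, a DNA-binding protein gene, at chr1:27897015-27899035, spanned 2021 bp and had 253 MACS tags and a tagcount of 97 (ratio 0.383, counting interval 0.300 to 0.486). A region at ANXA4, which encodes a calcium-dependent membrane-binding protein (chr2:69944830-69946135), had 207 MACS tags and a tagcount of 53 (ratio 0.256). IGSF3, an immunoglobulin-domain adhesion protein, named a region at chr1:117185050-117186426 with 161 MACS tags and a tagcount of 78 (ratio 0.484). MPZL1, a cell surface glycoprotein, named one at chr1:167650140-167651262 with 166 and 47 (ratio 0.283). The regions named in this paragraph had ratios from 0.256 to 0.484, and the rule admits none under 0.25. Intronic regions below the threshold reached 633 MACS tags.

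The highest tagcount, 168 beside 234 MACS tags, was at a region named for RN7SKP29, a copy of the 7SK small nuclear RNA on chromosome 8. NOTCH2 named the next 2, with tagcounts of 115 (148 MACS tags) and 113 (172 MACS tags), and NOTCH2NL, a partial copy of NOTCH2, had 108 (183 MACS tags). NBPF10, a member of a recently duplicated primate family, had 88 (161 MACS tags). NOTCH2, NOTCH2NL, NBPF10, SRGAP2 and SRGAP2B have near-identical copies on chromosome 1, and the sources used here do not say how tags were shared between copies, so their counts are uncertain.

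Ratios of 1 or more occurred at regions of at most 55 MACS tags, but these tags are the denominator of the ratio. SLC19A1, the reduced folate carrier, named the highest, at chr21:46920424-46920890, with 55 MACS tags and a tagcount of 69 (ratio 1.25, counting interval 0.868 to 1.82). PLEKHA6, a pleckstrin homology domain protein, named a region with 45 and 50 (1.11), and RAB11FIP1, an adaptor of recycling endosomes, one with 41 and 42 (1.02). HUNK, a serine/threonine kinase (36 and 36), and FAM83F (32 and 32) were at exactly 1. In each of these 5 regions the counting interval included 1.

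Members were shared among 784 gene names. Leaving out 23 members whose names are carried by RNA gene copies on several chromosomes (Y_RNA 9, snoU13 8, SNORD112 3), 778 genes remained, of which 649 had a single member, 83 had 2, 29 had 3 and 17 had 4 or more. Of the 46 genes with 3 or more members, 11 also had a promoter-class region and 12 also had an intronic region of ratio under 0.25. The regions of a gene thus fell on both sides of the threshold for 12 of 46 genes. Over all 778 genes, 101 (13.0%) had a promoter-class region and 90 had regions on both sides of the threshold. The part of the number of regions per gene in these counts was not tested.

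**Figure D2:**
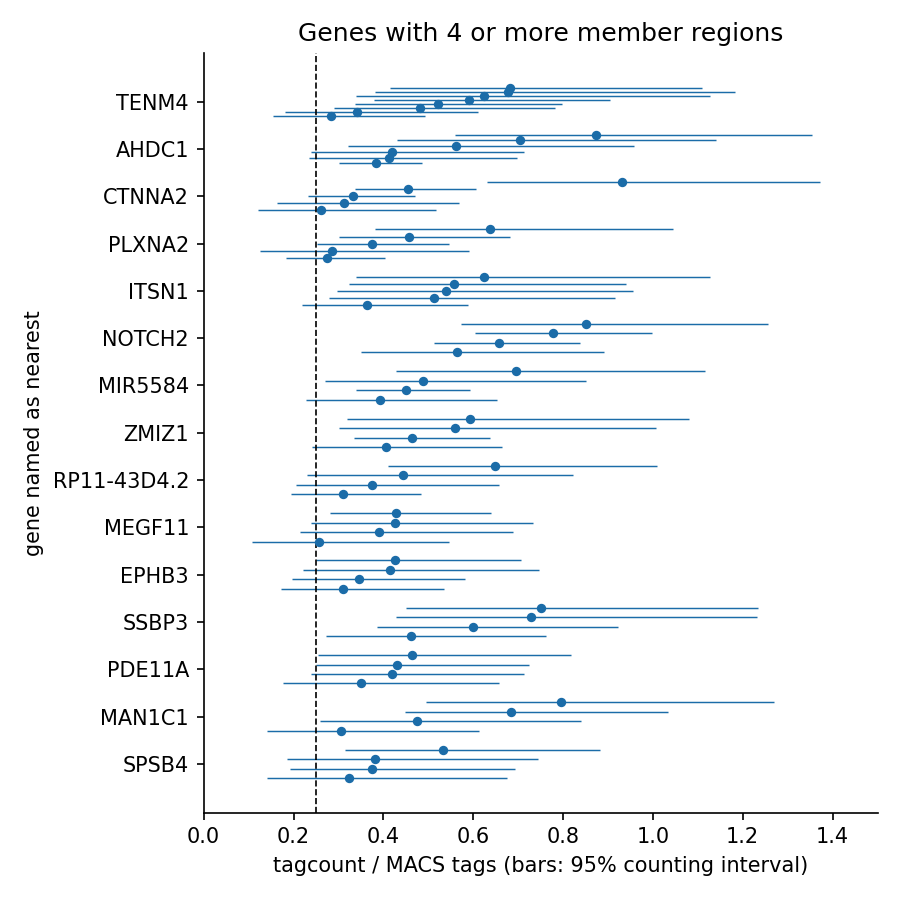
Ratio of tagcount to MACS tags at every member of 15 of the 17 genes with 4 or more members; points are single regions, bars are 95% counting intervals and the dashed line is the threshold of 0.25. Most bars within a gene overlap, and CTNNA2 has 1 region, at 0.931, apart from its other 4.

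Genes of cell adhesion and axon guidance, most of those named here longer than 100 kb, supplied several of the largest groups. TENM4, a teneurin that joins cells across the synaptic cleft and guides neurites, had 8 members spread over 470777 bp of chromosome 11. Their MACS tags were 47, 54, 61, 60, 32, 34, 67 and 44 in order of position, and their tagcounts 16, 26, 36, 17, 20, 23, 35 and 30. All 8 peaks were of similar size, with ratios from 0.283 to 0.682 (median 0.556), and 2 further intronic regions named for TENM4 fell below the threshold.

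CTNNA2, the neuronal alpha-catenin that ties cadherins to actin, had 5 members. A pair 698 bp apart carried most tags, with 154 and 70 (MACS tags and tagcount) at chr2:80590964-80592126 and 135 and 45 at chr2:80592825-80593587. The region farthest from its named start, 81327 bp downstream at chr2:79620846-79621504, had 58 MACS tags and a tagcount of 54, a ratio of 0.931 (0.631 to 1.37). The pair had ratios of 0.455 (0.338 to 0.607) and 0.333 (0.232 to 0.470). Ratios chose these regions, so their spread within the gene is a description.

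PLXNA2 had 5 members with 35, 104, 127, 44 and 81 MACS tags and tagcounts of 10, 39, 35, 28 and 37 in order of position. The ratio was lowest, 0.276 (0.184 to 0.403), at chr1:208399442-208400506 and highest, 0.636 (0.382 to 1.05), at chr1:208404340-208404821, and these intervals overlap. EPHB3, an ephrin receptor that repels growing axons, had 4 members with 54, 58, 58 and 41 MACS tags and tagcounts of 23, 18, 20 and 17. Its members at 22375 and 63481 bp downstream of a start lay beyond the gene that names them, as the annotated gene is 20624 bp long. Whether the other EPHB3 members lie inside the gene was not tested. SEMA3C, a secreted semaphorin, had 3 members (35, 53 and 54 MACS tags, tagcounts 14, 29 and 19) and 2 regions below the threshold. NTM, a neuronal adhesion protein of the IgLON family, also had 3 members, with ratios of 0.294, 0.658 and 0.373. Other than EPHB3, these genes are long, at 788202 bp (TENM4), 1.46e+06 bp (CTNNA2), 222143 bp (PLXNA2), 179822 bp (SEMA3C) and 966345 bp (NTM). The part of gene length in their numbers of members was not tested.

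Among genes of DNA-binding proteins and their partners, AHDC1 had 6 members, at 41, 47, 50, 253, 51 and 44 MACS tags with tagcounts of 23, 41, 21, 97, 21 and 31. One AHDC1 region thus had far more MACS tags than its neighbours, and its ratio of 0.383 was the lowest of the 6. That region was also far wider, at 2021 bp against 411 to 595 bp, so its tags do not show a taller peak.

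ZMIZ1, a coactivator of nuclear receptor and Notch targets, had 4 with 59, 34, 32 and 125 MACS tags and tagcounts of 24, 19, 19 and 58. SSBP3, which stabilises LIM-domain transcription complexes, had 4 with ratios from 0.462 to 0.75. None of the ZMIZ1 or SSBP3 intronic regions fell below the threshold.

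NOTCH2 had 4 members, which carried 60, 148, 55 and 172 MACS tags and tagcounts of 51, 115, 31 and 113. Its ratios were all above the median of the members, from 0.564 to 0.85, with the uncertainty on gene copies named above. ITSN1 had 5 members with 37, 66, 32, 43 and 37 MACS tags and tagcounts of 19, 24, 20, 24 and 20. These ITSN1 peaks were small and even, with ratios from 0.364 to 0.625.

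The microRNA gene MIR5584 on chromosome 1 named 4 members, all upstream of its start, at distances from -44357 to -2163 bp. Their MACS tags were 46, 41, 56 and 169 and their tagcounts 32, 20, 22 and 76. Its 60 bp hairpin is shorter than any of these regions, so it marks a position and does not hold them. It was the only microRNA gene with 3 or more members, and its mature sequences from RefSeq (GRCh38.p14) are shown for that reason, with the seed, bases 2 to 8, in capitals.
hsa-miR-5584-5p: cAGGGAAAugggaagaacuaga
hsa-miR-5584-3p: uAGUUCUUcccuuugcccaauu
The seeds of these 2 arms are different. In all, 25 members lay nearest to a microRNA gene, and MIR653 named 2 of them.

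Members lay closer to the nearest start, by their median, than the intronic regions below the threshold. The median distance was 10470.5 bp (9484 to 11916, n = 1004) for members and 15697.5 bp (13017 to 17054, n = 490) for the others, and these intervals do not overlap. Within 10 kb of a start lay 490 members (48.8%, 45.7 to 51.9) and 192 of the others (39.2%, 34.8 to 43.7). Without chromosome 1 the medians were 11404 bp (9898 to 12819) and 15669 bp (13103 to 17054), while the shares within 10 kb, 46.6% (43.0 to 50.3) and 39.1% (34.5 to 43.8), had intervals that overlap. Among regions of 27 to 45 MACS tags the intervals of the median distance overlap, at 10697 bp (9484 to 12821) and 16137.5 bp (11107 to 20246). Above 45 tags they do not, at 10046.5 bp (8592 to 12293) and 15559.5 bp (12724 to 16977). Beyond 50 kb lay 8.86% of members (7.18 to 10.8) and 12.7% of the others (9.84 to 15.9), intervals that overlap. Intergenic cluster III enhancer-class regions of the same ratio lay farther away, at a median of 21515 bp (19551 to 23195, n = 781), but their class leaves out gene bodies, and 0 of 783 lay within 5 kb of a start. Members nearest to a start were named for RBM38, an RNA-binding protein (-1439 bp), JUNB, a subunit of the AP-1 transcription factor (-1454 bp), and HNRNPA1, a splicing regulator (1476 bp). The farthest was named for ADAMTS9, a secreted metalloprotease, at -222251 bp.

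**Figure D3:**
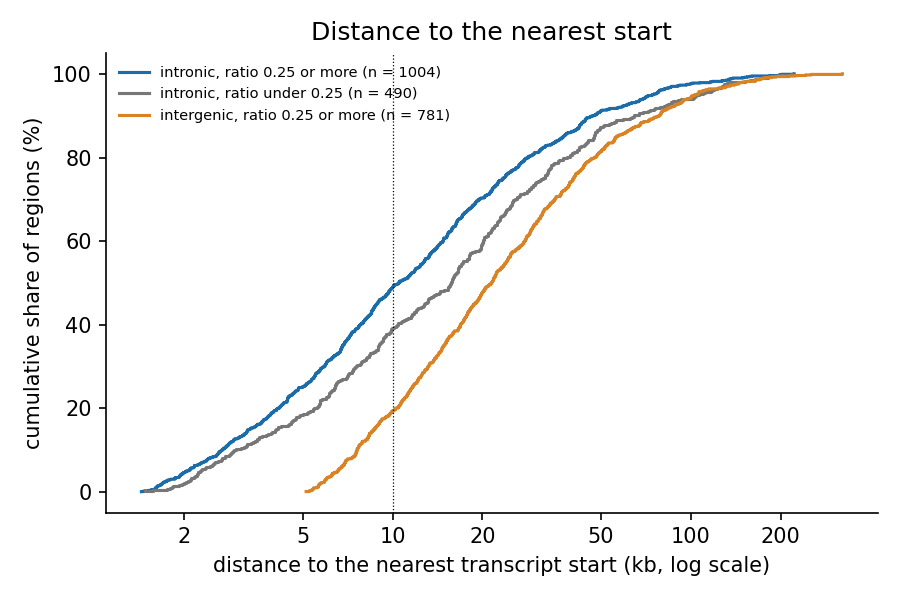
Cumulative share of regions by distance to the nearest transcript start, in kb on a log scale, for members (blue), intronic regions of ratio under 0.25 (grey) and intergenic regions of ratio 0.25 or more (orange). At the dotted line, 10 kb, the curves stand at 48.8%, 39.2% and 19.3% of regions.

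Members were named for shorter genes, by their median, than the intronic regions below the threshold. The median length of the protein-coding genes was 116693 bp (103322 to 132756, n = 439 genes) against 203514 bp (172827 to 243198, n = 216). Both medians, of gene length and of distance, were lower for members, and their part in each other's difference was not tested. Gene lengths were not compared without chromosome 1, and 90 genes of any type were in both groups. Protein-coding genes named 585 of the 952 members with a known gene type (61.4%, 58.3 to 64.6) and 55.6% (50.9 to 60.2) of the others, intervals that overlap. Within 10 kb of a start both shares were 63.4%. Beyond 10 kb they were 59.6% (55.1 to 64.0) and 50.4% (44.3 to 56.4), which overlap. Among the intergenic regions the share was 31.7% (28.3 to 35.2). Of all members, 220 were named for long noncoding RNAs and 72 for processed pseudogenes.

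A promoter-class region was named for the same gene at 147 members (14.6%, 12.5 to 17.0) and at 36 of the 490 other intronic regions (7.35%, 5.20 to 10.0). With each gene counted once, 101 of 778 genes with a member (13.0%, 10.7 to 15.5) and 28 of 416 genes with a region below the threshold (6.73%, 4.52 to 9.58) had a promoter-class region, and 90 genes were in both groups. Without chromosome 1 the shares of genes were 10.6% (8.31 to 13.4) and 6.18% (3.96 to 9.13), and the shares of regions 11.2% (84 of 753) and 6.77% (30 of 443), with intervals that overlap in each case. Within 10 kb of a start the shares of regions were 15.5% (12.4 to 19.0) and 9.38% (5.65 to 14.4), which also overlap, and beyond 10 kb 13.8% (10.9 to 17.1) and 6.04% (3.62 to 9.38), which do not. Among regions of 27 to 45 MACS tags they were 13.5% (10.6 to 16.7) and 8.72% (4.96 to 14.0), which overlap, and above 45 tags 15.9% (12.7 to 19.4) and 6.60% (4.13 to 9.92), which do not.

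Cluster II regions, deposited under the library without ATRA, were seldom near either group. A cluster II region lay within 10 kb of 41 members (4.08%, 2.95 to 5.50) and of 5 of the others (1.02%, 0.332 to 2.37), and without chromosome 1 the shares were 3.98% (2.70 to 5.64) and 0.903% (0.247 to 2.30). Within 10 kb of a start they were 6.73% (4.68 to 9.33) and 2.08% (0.570 to 5.25), and beyond it 1.56% (0.674 to 3.04) and 0.336% (0.0085 to 1.86). At 27 to 45 MACS tags they were 4.69% (3.03 to 6.89) and 1.16% (0.141 to 4.14), and above 45 tags 3.46% (2.03 to 5.47) and 0.943% (0.195 to 2.73). In each of these distance and tag ranges the intervals overlap. Intergenic regions of the same ratio had 4.73% (3.35 to 6.45), an interval that overlaps that of the members. The median gap to a cluster II region was 333282 bp (286179 to 370942) for members and 645030 bp (570460 to 732140) for the others. Cluster I regions lay within 10 kb of 3 members and of 0 of 490 others, a share of up to 0.750% by the exact interval. Another region of any list lay within 10 kb of 30.6% of members (27.7 to 33.5) and 26.7% of the others (22.9 to 30.9), which overlap.

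Widths were alike. The median was 487 bp (479 to 495) for members, 507 bp (493 to 525) for the other intronic regions and 486 bp (475 to 499) for the intergenic ones, and in the 2 ranges of MACS tags used above the members' medians were 421.5 and 581 bp against 414.5 and 576 bp. MACS tags were lower in members than in the other intronic regions, with medians of 45 (44 to 47) and 54 (52 to 58), but they are the denominator of the ratio that chose the members.

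Members lay on 23 chromosomes, with 1 on an unplaced contig, and were uneven between them. Chromosome 1 held 251 of them (25%, 22.3 to 27.8), against 47 of the 490 intronic regions below the threshold (9.59%, 7.13 to 12.6). There 84.2% of intronic regions (79.6 to 88.2) were members, as were 29 of 33 on chromosome 13 (87.9%) and 36 of 41 on chromosome 21 (87.8%). At the other end, 17 of 44 on chromosome 10 (38.6%, 24.4 to 54.5), 13 of 32 on chromosome 4 (40.6%) and 20 of 48 on chromosome 5 (41.7%) were members. The ratio chose the members, so these shares describe how it varied and test nothing.

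Other cluster III classes on the same chromosomes show where that unevenness was shared. Over 17 chromosomes with at least 20 intronic and 20 intergenic regions, the median ratio ran from 0.203 to 0.475 for intronic, from 0.184 to 0.431 for intergenic and from 0.507 to 0.606 for promoter-class regions at starts. Intronic and intergenic medians went together (Pearson 0.734, Spearman 0.671), while intronic and promoter medians did so less closely (0.320 and 0.227). These are descriptions over chromosomes that share the same libraries.

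**Figure D4:**
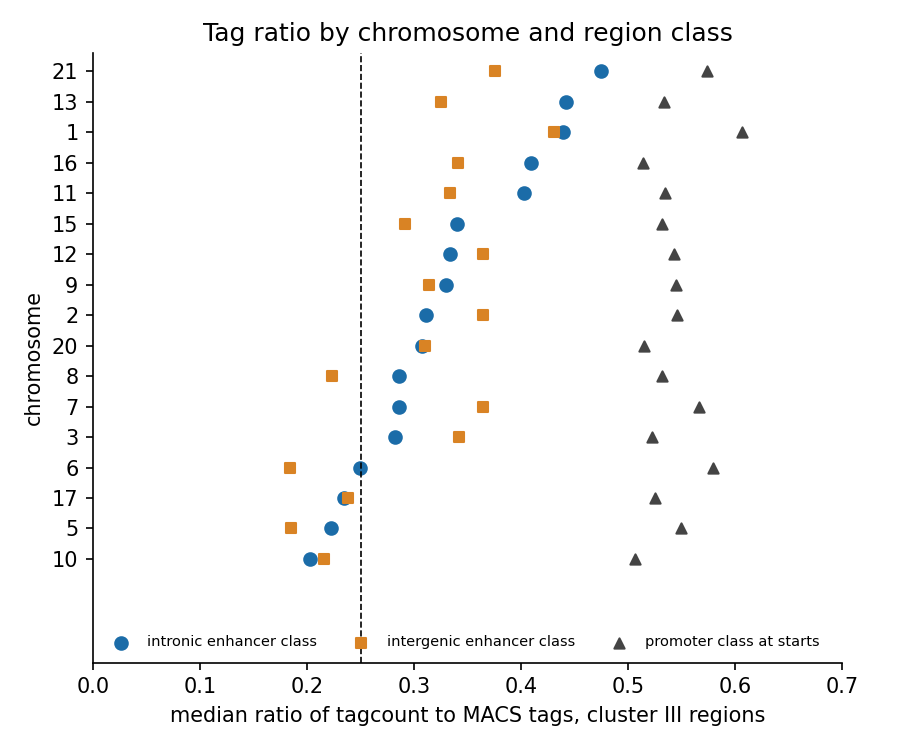
Median ratio of tagcount to MACS tags by chromosome for cluster III regions of the intronic enhancer class (blue circles), intergenic enhancer class (orange squares) and promoter class at starts (grey triangles); the dashed line is 0.25, and the 17 chromosomes with at least 20 intronic and 20 intergenic regions are drawn. Among them, intronic medians run from 0.203 on chromosome 10 to 0.475 on chromosome 21, and promoter medians from 0.507 to 0.606.

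Genes of the 16 lists set for this cell system were counted as having a member when the authors named them as nearest. Over all lists, 50 of 235 named genes had a member (21.3%), with 90 member regions between them. The same share was 11.7% over all 6697 gene names in the region lists and 9.75% over the protein-coding ones. Long genes had a member more often, at 24.4% of protein-coding genes of 100 kb or longer, and 35 of the 110 list genes of that length had one (31.8%, 23.3 to 41.4). The interval for long list genes includes the share of all long genes.

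**Figure D5:**
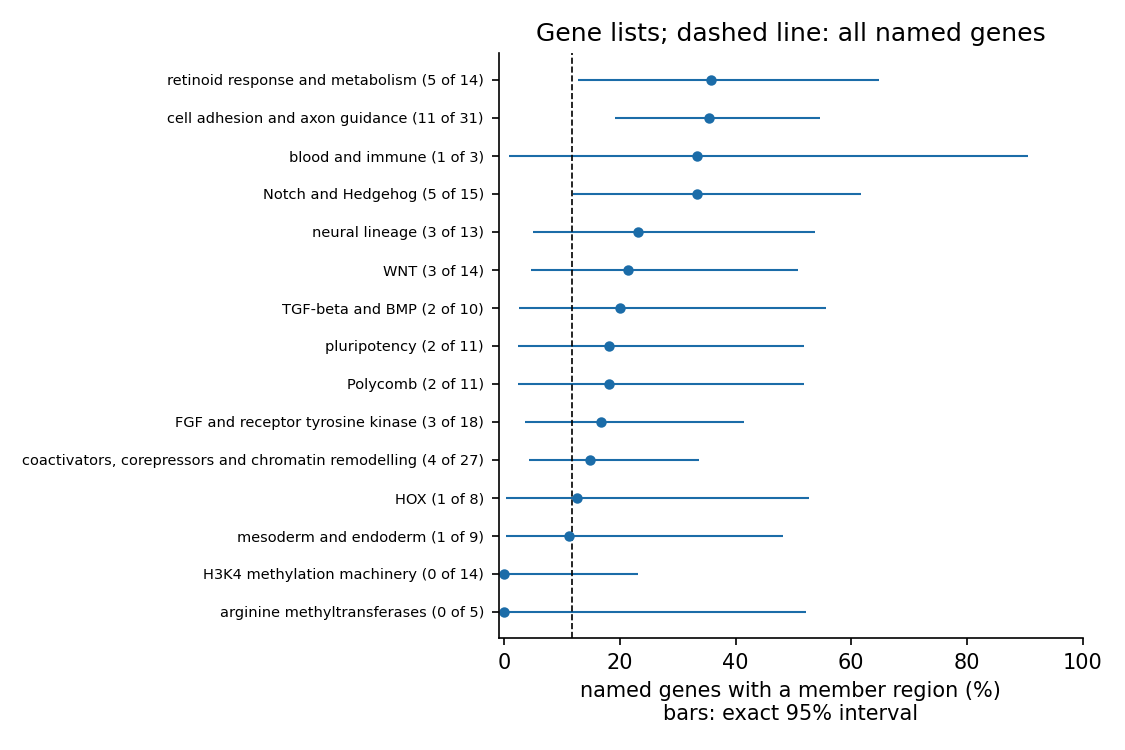
Share of the named genes of 15 of the 16 lists that had at least 1 member, with exact 95% intervals as bars and numbers of genes beside each name; the dashed line is 11.7%, the share over all named genes. Cell adhesion and axon guidance (35.5%) and retinoid response (35.7%) stand highest, and the 2 histone methylation lists are at 0.

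Cell adhesion and axon guidance had 11 of 31 named genes with a member (35.5%, 19.2 to 54.6) and 32 member regions. Besides TENM4, CTNNA2, PLXNA2, EPHB3 and NTM these included PTPRF, a receptor phosphatase of growth cones, whose 2 members had ratios of 0.5 and 0.889. Single members were named for ROBO2, the receptor of the repellent SLIT (37 MACS tags, tagcount 12), CNTNAP2, a neurexin relative of axons (35 and 12), and LSAMP (87 and 25) and OPCML (49 and 33), both IgLON adhesion proteins. The share of long genes of any kind with a member, 24.4%, lies inside the interval of the list. Of these 31 genes, 9 had an intronic region of ratio under 0.25. Beside the 6697 gene names in all, such a region was named for 416 genes, leaving out names carried on several chromosomes.

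Retinoid response and metabolism had 5 of 14 named genes with a member (35.7%, 12.8 to 64.9), against 11.7% of all names and 24.4% of long genes, the latter inside the interval. An intronic region of ratio under 0.25 was named for 3 of the 14, and for 416 genes beside the 6697 names in all. RARB, a retinoic acid receptor that is itself a classic retinoid target, had a member at -3650 bp from a start, chr3:25495813-25496654, with 77 MACS tags and a tagcount of 29 (ratio 0.377). TGM2, a transglutaminase induced by retinoids, had one with 41 and 31 (0.756), NRIP1, a corepressor of liganded nuclear receptors, one with 32 and 16 (0.5), and MEIS1, a homeodomain factor, one with 36 and 11 (0.306). The RARB region thus had the most MACS tags of these single members, and the TGM2 region had the highest ratio.

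Of 15 named Notch and Hedgehog genes, 0 had an intronic region of ratio under 0.25. With such a region at 416 genes, beside 6697 names in all, this 0 does not set the list apart. Members were named for 5 of the 15 (33.3%, 11.8 to 61.6). By role these were JAG1, a Notch ligand (48 MACS tags, tagcount 20), the receptor NOTCH2, BOC, a Hedgehog coreceptor (44 and 22), and the Hedgehog transcription factors GLI2 (32 and 9) and GLI3 (39 and 14). WNT genes had 3 of 14, the ligand WNT3A (47 and 15) and the receptors LRP5 (47 and 27) and ROR2 (54 and 36). TGF-beta and BMP genes had 2 of 10, SKI, a corepressor of SMAD proteins (48 and 17), and SMURF1, a ubiquitin ligase for them (50 and 21). FGF and receptor tyrosine kinase genes had 3 of 18, the ligand FGF3 (48 and 21) and the receptors FGFR1 and IGF1R named at the threshold above. Each of these lists had an interval that included the 24.4% of long genes, and all but Notch and Hedgehog one that included 11.7%.

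Genes of cell identity gave small numbers. The shares with a member were 18.2% for pluripotency, 23.1% for neural lineage and 12.5% for HOX genes. They were 11.1% for mesoderm and endoderm and 33.3% for blood and immune genes. Each of these lists had an interval that included both the 11.7% of all names and the 24.4% of long genes. Pluripotency genes had 2 of 11. SOX2, a core factor of pluripotent cells, had a member 41642 bp downstream of its start (40 MACS tags, tagcount 14). ESRRB, an orphan nuclear receptor, had one 70640 bp downstream (43 and 15). Only 1 of these 2 genes had a member within 50 kb of the named start. Whether either region lies inside the gene that names it was not tested. Neural lineage genes had 3 of 13, namely GLI3, PAX3, a factor of the dorsal neural tube and neural crest (122 and 36), and MAP2 (100 and 33). HOX genes had 1 of 8, HOXB3 (34 and 23), mesoderm and endoderm genes 1 of 9, GATA4 (35 and 25), and blood and immune genes 1 of 3, RUNX1, with 2 regions (81 and 24, and 62 and 43).

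Chromatin regulators fell into 4 lists, all with intervals that include the 11.7% of all names. Polycomb genes had 2 of 11 (18.2%, 2.28 to 51.8). These were PHC2, a subunit of the Polycomb repressive complex PRC1, with 3 regions, and KDM2B, which brings PRC1 to CpG islands (76 and 41). The PHC2 region with most MACS tags had 158 and a tagcount of 64. Coactivators, corepressors and remodellers had 4 of 27 (14.8%, 4.19 to 33.7), with CHD2, a nucleosome remodeller (48 and 32), and TLE4, a Groucho corepressor (35 and 17), and ZMIZ1 among them. An intronic region of ratio under 0.25 was named for 5 of the 27, more than the 4 with a member. Such a region was named for 416 genes, beside 6697 names in all. The H3K4 methylation machinery had 0 of 14 named genes with a member, an upper bound of 23.2%, and the arginine methyltransferases 0 of 5, an upper bound of 52.2%. With so few named genes, these counts of 0 do not separate either list from the share of all genes. The bound of 23.2% lies just under the 24.4% of long genes, but the lengths of the listed genes were not taken into account. An intronic region of ratio under 0.25 was named for 1 of the 14 and 0 of the 5.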

How the data were processed

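ChIP-seq region lists from H3R2me2a in CRISPR control NT2/D1 cells were used as deposited. bcl2fastq, Bowtie2, MACS 1.4 and deepTools with build hg19 (GRCh37) are named in the submitters' processing notes, with no role or order. Per the file headers, the deposited values are unscaled whole-number counts of tags in each region, named MACS tags and tagcount. The authors' position classes were set at 1250 bp around a start and 5000 bp upstream. The sources used here give no sequencing depth, cluster or enhancer criteria, or peak-calling control.

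Lists were joined on chromosome, start and stop (Python 3.11.15, pandas 2.3.3). Shares carry exact Clopper-Pearson 95% intervals and medians exact binomial order-statistic 95% intervals (scipy 1.17.1). The interval of a ratio came from the exact binomial interval of tagcount in the sum of both counts. The functions were tested on simulated data. GENCODE 44 gave gene types and lengths by transcript or gene name, and RefSeq gave promoter and microRNA sequences. Named regions were the 10 highest in MACS tags, tagcount, ratio and width, those at the extremes of distance and at the threshold, the genes with most members, the closest pairs, and members of 16 gene lists. A selection of these is given, and some items are not reported here. Members, lists and rules were chosen with earlier results of these data known. Other thresholds, joins and exclusions were tried, and their effect is given in the closing section.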

Additional observations from a re-analysis of the deposited data

How the results depend on the processing

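Of 68 alternative values, 49 stayed within the interval of the reported value, or within 1.5 times for counts, and 19 moved outside it. The alternative sets overlap the reported members, so agreement was partly fixed in advance. These values cover members only. The contrasts with the regions below the threshold were not rerun at other ratio thresholds. A ratio threshold of 0.33 gave a median distance of 9175 bp, 52.7% of members within 10 kb of a start and a member share of 50.9%, and a threshold of 0.20 a member share of 77.6%. Limits of 5 and 20 kb gave 25.1% and 70.3% of members near a start and 2.49% and 7.07% near a cluster II region, by construction. Keeping regions at or above the cluster III median of 50 MACS tags left 398 members, a median width of 619.5 bp, a same-gene share of 22.9% (33.1% reported) and a member share of 58.6%. Adding a pseudocount of 1 gave a member share of 70.3%. Keeping the chromosome 12 short arm gave 39.1% with a same-gene partner, 20.5% with a promoter-class region at the gene and a member share of 70.2%. Leaving out chromosome 1, chosen after seeing the data, gave 27.8%, 11.2% and 63.0% for these values. The cause of the shifts with chromosomes was not tested. Reciprocal overlap of 50% in place of identical coordinates changed none of the values.

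With 1 library per condition, leaving out a replicate was not an option. No paired analysis was possible because each condition had a single H3R2me2a control library with region lists. Region tag numbers limit the precision of single ratios, and the missing depths bar any reading of the ratio as gain or loss with ATRA.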

Other observations

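Some members lay next to each other and were counted separately. Of pairs of adjacent members, 11 were 100 bp or less apart, 46 were 1000 bp or less and 102 were 10000 bp or less. The closest 3 pairs were 2 bp apart, at MIR5584 on chromosome 1 (56 and 169 MACS tags, ratios 0.393 and 0.450), at ITSN1 on chromosome 21 (43 and 37, ratios 0.558 and 0.541) and at AC078785.1 on chromosome 3 (55 and 33, ratios 0.382 and 0.424). A pair at ISPD, an enzyme of dystroglycan glycosylation, was 8 bp apart (100 and 75, ratios 0.66 and 0.52), and one at SPSB4, an adaptor of ubiquitin ligases, was 13 bp apart (40 and 31, ratios 0.375 and 0.323).

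The share of members with another member named for the same gene was 33.1% (332 of 1004), against 23.3% among the intronic regions of ratio under 0.25. The groups differ in size, and without chromosome 1 the shares were 27.8% (24.6 to 31.1) and 24.8% (20.9 to 29.1). On chromosome 1 alone they were 49.0% (42.7 to 55.4, n = 251) and 8.51% (2.37 to 20.4, n = 47).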
